A study of Mus musculus with 19 samples.

Results

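The comparison set the XX line LF2 against the XY line E14 in mouse embryonic stem cells (mESC), over genes on chromosomes 1 to 19. Genes were taken where the deposited transcripts per 1000000 (TPM), summed over a gene's transcripts, reached at least 1 in at least 3 of the 6 libraries compared. This left 11486 of the 50402 autosomal genes in the table, 10233 of them protein-coding. A gene under 1 TPM in every library of 1 line passed only through the other line, which then set its direction. The series holds 19 libraries of rRNA-depleted total RNA from LF2, E14 and Tet3-/- cells of the LF2 line, each as mESC and as epiblast-like cells (EpiLC), and was laid out to ask whether TET3 is needed for that transition. Both mESC groups were labelled wildtype, with 3 libraries each, and were cultured in N2B27 medium holding inhibitors of GSK3 and MEK1/2 plus LIF. The EpiLC groups used here, also 3 wildtype libraries of each line, had spent 5 days in FGF5 plus Activin A, with LIF withdrawn. Line and sex chromosomes cannot be told apart, since each karyotype was represented by 1 line, and a difference below is a difference between these 2 lines.

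In this medium, often called 2i with LIF, blocking MEK silences the ERK pathway, blocking GSK3 stabilises beta-catenin, and LIF acts through STAT3, which together hold mouse stem cells in a ground state resembling the inner cell mass. A female line with both X chromosomes active carries a larger dose of X-linked genes than a male line, and female stem cells are known for low DNA methylation and damped ERK output. Stem cell lines also differ by strain of origin and by changes gained in culture, among them gains of whole or partial chromosomes.

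Values are given as scaled TPM, the deposited TPM divided by a factor per library (median of ratios over the 11486 genes). Differences are LF2 minus E14 on log2(scaled TPM + 1), which understates the change of genes at low levels. Within the lines the libraries were not equally close. LF2 replicate 2 had a Pearson correlation over genes of 0.9345 and 0.9377 with LF2 replicates 1 and 3, against 0.9855 between those, and its correlation with E14 replicate 1 was 0.9396. Over the 4258 genes called without it, its median position was 0.474 of the way from the E14 mean to the mean of the other LF2 libraries, with quartiles of 0.0814 and 0.871. These genes were chosen on LF2 replicates 1 and 3, which draws any other library inward, and the Tet3-/- mESC libraries, also of the LF2 line, lay at 0.765, 0.487, 0.512 and 0.733. The median over 445 X-linked genes was 0.633, 0.424 and 0.625 above the E14 mean in LF2 replicates 1 to 3. Results are therefore given with and without LF2 replicate 2. All 8 genes defining mESC, among them Pou5f1, Sox2 and Nanog, were members, and their summed level was 820 to 1020 scaled TPM in LF2 and 816 to 1030 in E14. Of the 8, 2 were called higher and 1 lower in LF2. The sum was not set beside EpiLC, so it does not by itself tell the culture states apart. Depth is not known from TPM, and protein-coding genes held 22.8% to 43.6% of the deposited TPM in LF2 and 32.2% to 46.1% in E14.

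Across the 11486 genes, 1045 were higher in LF2 (9.1% called) and 894 lower (7.78% called) at an adjusted p under 0.05, 16.9% in either direction. Of these, 491 were higher and 369 lower by at least 1 on the log2 scale. The 3 LF2 libraries and the 3 E14 libraries did not overlap for 4249 genes (37.0%), 2191 with LF2 above. Without LF2 replicate 2, 2193 genes were higher and 2065 lower (37.1% called). Leaving out another library lowered the counts, least without E14 replicate 2, to 928 higher and 770 lower. There were 374 higher and 347 lower without LF2 replicate 1, 441 and 394 without LF2 replicate 3, 346 and 307 without E14 replicate 1, and 386 and 339 without E14 replicate 3. In all 6 such fits 316 of the 1045 higher genes and 265 of the 894 lower genes were called again. With TPM as deposited, without scaling, the median of all genes moved to -0.245 from -0.009 and 40.1% of the calls were higher in LF2, against 53.9% with scaling. Nothing in the labels says that replicates came from separate cultures, so the p-values measure the spread between these libraries. In bulk RNA, fewer cells expressing a gene and less of its RNA per cell cannot be told apart.

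The largest differences among genes without overlap between the lines are shown by library in the plot of leading genes. Pramel6, a PRAME-family gene of the early embryo at chr2:87506565-87510872 (GRCm38), read 141, 32.7 and 140 scaled TPM in LF2 replicates 1 to 3 and 0.717, 0.499 and 0.653 in E14 replicates 1 to 3. Its neighbour Pramel7, whose product is known to lower UHRF1, the partner of the maintenance methyltransferase, read 69.2, 29.8 and 65.4 in LF2 and 0.0834, 0.164 and 0.196 in E14. For both genes LF2 replicate 2 was the lowest of its line and still far above every E14 library, and the differences were 5.76, SE 0.54, adjusted p = 0.0017 and 5.51, SE 0.31, adjusted p = 7.1e-04. The 2 genes are related in sequence, and how the deposited values divided reads between such copies is not given in the sources used here.

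**Figure D1:**
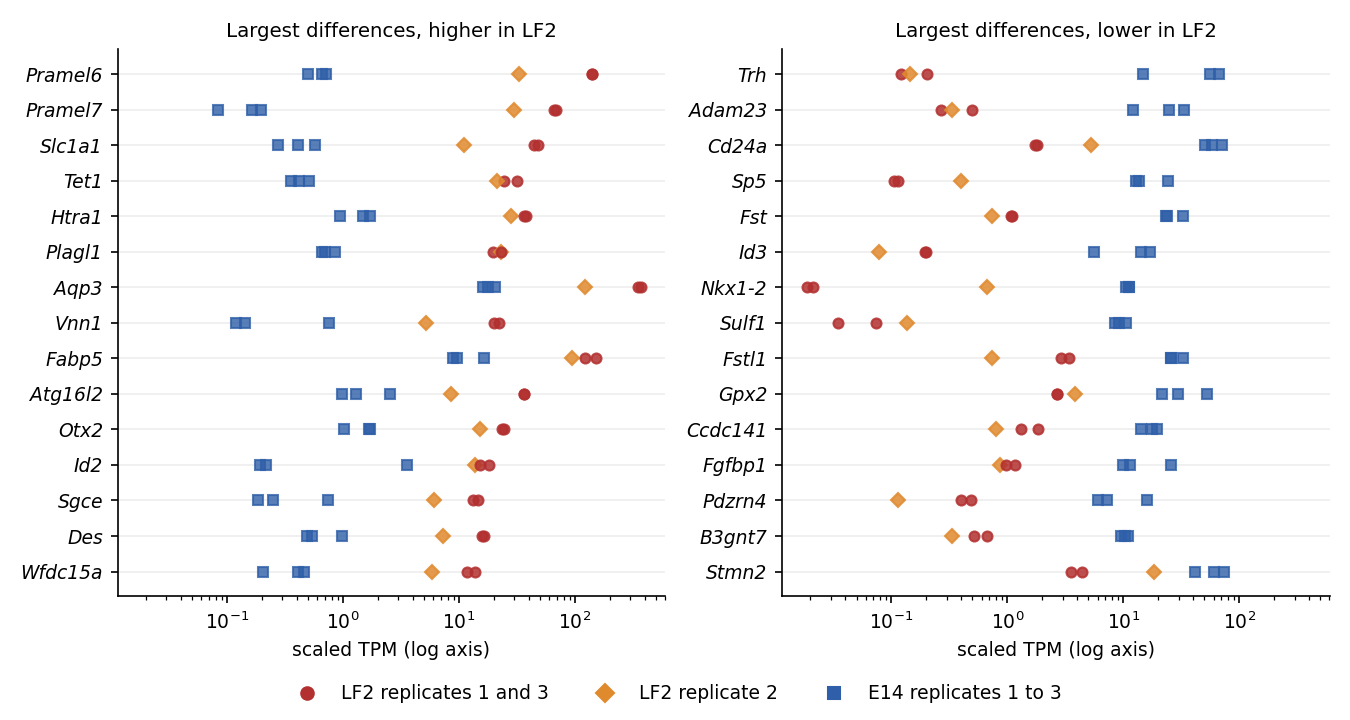
Scaled TPM (log axis) of 15 genes in each direction, 1 point per mESC library. They have the largest called differences among genes with a mean of at least 5 scaled TPM in the higher line. Pseudogenes, Gm-numbered and Rik models and genes with overlapping lines were left out beforehand. E14 libraries are squares, LF2 replicates 1 and 3 circles and LF2 replicate 2 a diamond. For Pramel6 the LF2 libraries lie at 141, 32.7 and 140 and the E14 libraries at 0.717, 0.499 and 0.653.

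Tet1, a dioxygenase that oxidises 5-methylcytosine, at chr10:62804570-62908996 (GRCm38), read 24.3, 21.4 and 31.5 scaled TPM in LF2 and 0.42, 0.511 and 0.359 in E14. The 3 E14 libraries were all under 1, and the LF2 libraries were close to each other, LF2 replicate 2 included (4.21, SE 0.16, adjusted p = 2.0e-04). The membrane transporter of glutamate Slc1a1 read 44.5, 11 and 47.9 in LF2 and 0.576, 0.407 and 0.277 in E14 (4.40, SE 0.52, adjusted p = 0.0034). The water and glycerol channel Aqp3 was one of the most abundant called genes, at 368, 122 and 350 in LF2 and 17.7, 20.6 and 16 in E14 (3.73, SE 0.42, adjusted p = 0.003). In both, LF2 replicate 2 was the lowest of its line and above every E14 library.

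The secreted protease gene Htra1 read 38.1, 27.9 and 36.5 scaled TPM in LF2 and 1.72, 0.946 and 1.49 in E14, a difference of 3.88, SE 0.18, adjusted p = 2.7e-04. Id2, an inhibitor of basic helix-loop-helix factors, read 18.2, 13.7 and 15.1 and 0.194, 3.57 and 0.216 (3.14, SE 0.51, adjusted p = 0.0091), with E14 replicate 2 well above the other E14 libraries. Its relative Id3 went the other way, at 0.193, 0.0787 and 0.2 in LF2 and 17.1, 5.54 and 14.2 in E14 (-3.40, SE 0.36, adjusted p = 0.0026). Fabp5, a fatty acid carrier, was higher by 3.32, SE 0.27, adjusted p = 0.0013, the pantetheinase gene Vnn1 by 3.46, SE 0.51, adjusted p = 0.0067, the intermediate filament gene Des by 3.02, SE 0.30, adjusted p = 0.0022 and Wfdc15a by 3.01, SE 0.29, adjusted p = 0.0018. The autophagy-related Atg16l2 was higher by 3.24, SE 0.54, adjusted p = 0.01, and its call was lost without E14 replicate 3 (adjusted p = 0.0509).

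Trh, which encodes the precursor of thyrotropin-releasing hormone, at chr6:92242061-92244650 (GRCm38), led the lower genes, at 0.12, 0.144 and 0.204 scaled TPM in LF2 and 66.3, 14.8 and 56.4 in E14 (-5.09, SE 0.51, adjusted p = 0.0022). All 3 LF2 libraries were near the floor, while E14 replicate 2 was the lowest of its line. The surface protein gene Adam23 read 0.267, 0.334 and 0.496 and 24.8, 12.2 and 33.6 (-4.06, SE 0.33, adjusted p = 0.0013). Cd24a, a small surface glycoprotein, read 1.72, 5.29 and 1.8 and 58.6, 70.4 and 50.3 (-4.05, SE 0.34, adjusted p = 0.0013), and here LF2 replicate 2 was the highest of its line. The genes of 2 secreted proteins of the follistatin family were both lower: Fst by 3.81 (adjusted p = 2.7e-04) and Fstl1 by 3.23 (adjusted p = 0.0026).

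Of the remaining lower genes, Sulf1, which trims sulfate from heparan sulfate, read 0.074, 0.135 and 0.0348 scaled TPM in LF2 and 9.22, 8.48 and 10.6 in E14 (-3.27, SE 0.13, adjusted p = 2.0e-04). B3gnt7, a glycosyltransferase, read 0.52, 0.333 and 0.671 and 10.4, 9.46 and 10.9 (-2.90, SE 0.14, adjusted p = 2.7e-04). Fgfbp1, a carrier of fibroblast growth factors, differed by -2.95, SE 0.32, adjusted p = 0.0028, the glutathione peroxidase gene Gpx2 by -3.04, SE 0.31, adjusted p = 0.0024, the homeobox gene Nkx1-2 by -3.32, SE 0.21, adjusted p = 9.9e-04, Ccdc141 by -2.98, SE 0.20, adjusted p = 9.9e-04 and Pdzrn4 by -2.91, SE 0.33, adjusted p = 0.0031. Stmn2, a regulator of microtubules, differed by -2.89, SE 0.55, adjusted p = 0.015, and its call was lost without LF2 replicate 1, E14 replicate 1 or E14 replicate 3 (adjusted p up to 0.067).

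The abundant genes differed less. Gabarapl2, an ATG8-family gene of autophagy, read 317, 194 and 301 scaled TPM in LF2 and 51.8, 57.4 and 49.3 in E14 (2.31, SE 0.22, adjusted p = 0.0019), and Igfbp2, which binds insulin-like growth factors, read 428, 222 and 358 and 71.1, 64.7 and 62.3 (2.28, SE 0.26, adjusted p = 0.0031). Both were called in every fit that left out 1 library. The phospholipid peroxidase gene Gpx4 was higher by 1.31, SE 0.31, adjusted p = 0.032, the tetraspanin Cd9 by 0.81, SE 0.17, adjusted p = 0.022 and Rnf7, a subunit of cullin ubiquitin ligases, by 0.71, SE 0.18, adjusted p = 0.036. Of the abundant lower genes, the myosin light chain gene Mylpf read 80.9, 110 and 70.1 and 262, 193 and 202 (-1.33, SE 0.23, adjusted p = 0.011). The other 5 were Tdh, Aldoa, Taf1d, Hspb1 and Pabpc1, at differences of -1.28, -0.91, -0.85, -0.78 and -0.65. Apart from Gabarapl2, Igfbp2 and Aqp3, each of these abundant genes lost its call without LF2 replicate 1 and without E14 replicate 1 (adjusted p up to 0.164), all but Mylpf also without LF2 replicate 3 and without E14 replicate 3, and Taf1d, Hspb1, Tdh and Pabpc1 without E14 replicate 2 as well.

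The naive pluripotency network holds the transcription factors that keep stem cells in the ground state. Of the 16 genes of the list, all 16 were members, 5 were higher and 3 lower in LF2, and their median difference was 0.498. Over all members, here and for the lists that follow, 9.1% were higher, 7.78% were lower and the median was -0.009. Klf4 read 50.2, 47.3 and 47.3 scaled TPM in LF2 and 21.8, 25 and 22.3 in E14, each line close together (1.04, SE 0.13, adjusted p = 0.0035). Klf5, a related factor, read 32, 26.9 and 30.6 and 14.2, 13.7 and 15.4 (1.00, SE 0.13, adjusted p = 0.0042), and Socs3, a feedback inhibitor of STAT3 signalling, 3.41, 5.83 and 2.94 and 1, 0.665 and 0.824 (1.43, SE 0.23, adjusted p = 0.0084). The lines did not overlap in any of these 3, and all were called with each library left out.

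Gbx2, a homeobox gene that LIF signalling is known to activate, was lower instead, at 0.0728, 0.15 and 0.0086 scaled TPM in LF2 and 2.78, 4.7 and 2.68 in E14 (-2.0, SE 0.20, adjusted p = 0.0023), and this call too held with each library left out. Esrrb, an orphan nuclear receptor, was higher by 0.68, SE 0.17, adjusted p = 0.036 and the F-box gene Fbxo15 by 1.27, SE 0.28, adjusted p = 0.026, while Zfp42, also known as Rex1, was lower by 1.02 (adjusted p = 0.023) and Klf2 by 0.72 (adjusted p = 0.039). Each of these 4 lost its call without LF2 replicate 1, LF2 replicate 3, E14 replicate 1 or E14 replicate 3, Esrrb also without E14 replicate 2 (adjusted p up to 0.151). Nanog read 183, 185 and 163 in LF2 and 136, 92.5 and 121 in E14, without overlap, and did not pass (0.62, SE 0.19, adjusted p = 0.072). Dppa3, a germline and maternal factor that restrains UHRF1, varied within both lines, at 98.4, 29.7 and 85.9 and 12.7, 96.2 and 11.1, LF2 replicate 2 and E14 replicate 2 lying apart from the others in opposite directions (1.35, SE 0.85, adjusted p = 0.32). Without LF2 replicate 2 the list had 6 higher and 3 lower genes.

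**Figure D2:**
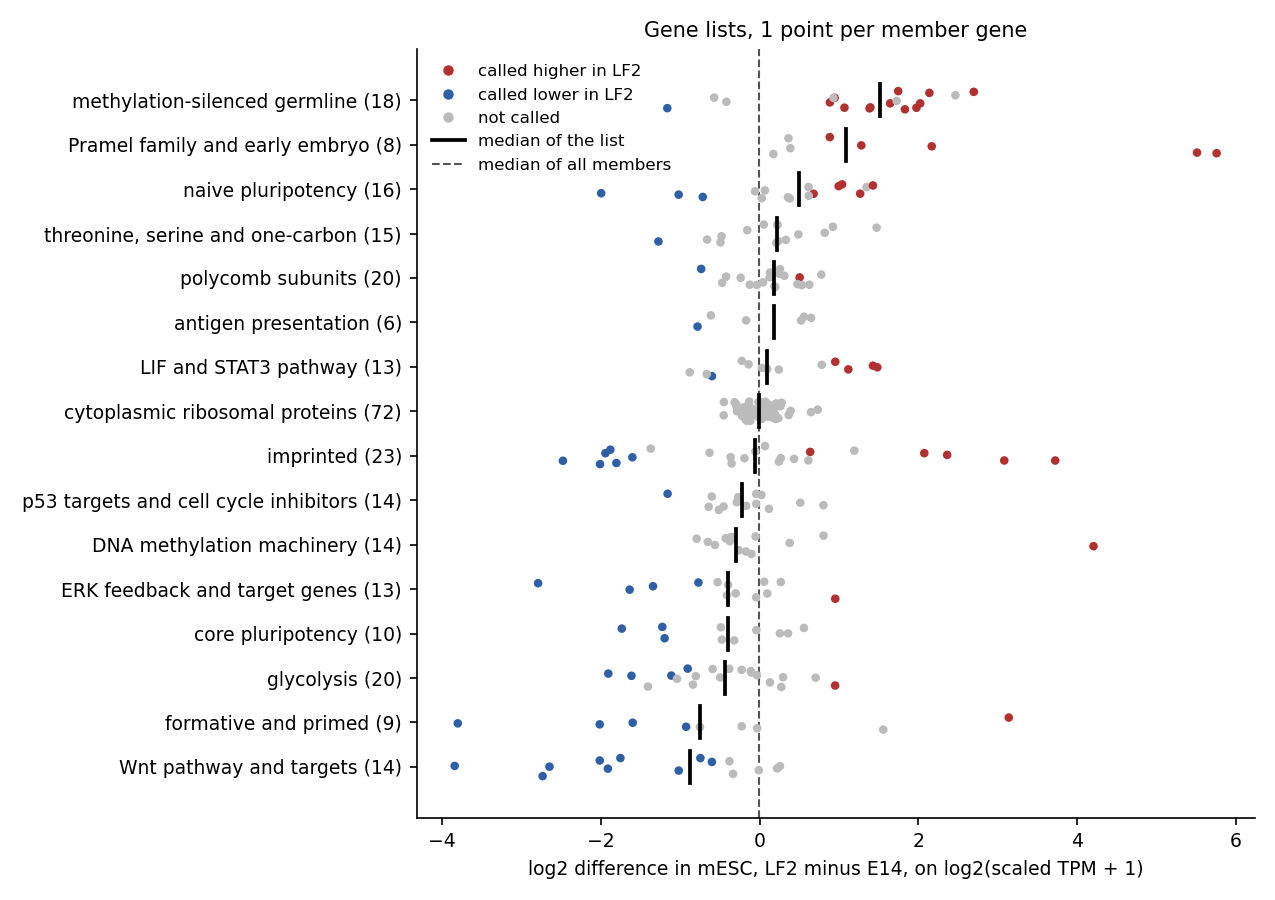
Log2 difference between LF2 and E14 in mESC (x axis) for the member genes of 16 gene lists, 1 point per gene, coloured by call, with the number of members in brackets. Bars mark list medians, which run from -0.883 for the Wnt list to 1.52 for the germline list, and the dashed line marks the median of all members, -0.009.

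Of the 10 core pluripotency genes none was higher and 3 were lower, with a median of -0.398. Pou5f1, which encodes OCT4, read 281, 402 and 236 scaled TPM in LF2 and 431, 351 and 344 in E14 and Sox2 80.6, 76.9 and 77.7 and 79.9, 88 and 74.8, both with overlapping lines and no call (-0.32, SE 0.25, adjusted p = 0.42 and -0.04, SE 0.14, adjusted p = 0.86). Dppa4 and Dppa2, neighbouring genes whose products bind chromatin as a pair, were lower by 1.23 (adjusted p = 0.0038) and 1.20 (adjusted p = 0.0084). Dppa4 read 7.31, 10.1 and 9.07 in LF2 and 23.4, 19.6 and 22.7 in E14, with LF2 replicate 2 next to its own line. Lin28a, an RNA-binding protein that blocks let-7 maturation, was lower by 1.74 (adjusted p = 0.012), and its call was lost without E14 replicate 1 or E14 replicate 3 (adjusted p up to 0.0558).

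Formative and primed genes mark the step after the ground state, and 9 of the 16 listed were members; Fgf5, Pou3f1, Fgf8, Sox11, Cdh2 and Lefty1 stayed under 1 TPM in all 6 libraries. Otx2, the 1 called higher, read 24.5, 15.1 and 23.4 scaled TPM in LF2 and 1.67, 1.02 and 1.72 in E14 (3.14, SE 0.22, adjusted p = 9.9e-04). Of the 9, 4 were lower, with a median of -0.752 over the list. Fst is given above, and Lef1, a Wnt effector, read 0.309, 0.0493 and 0.374 and 2.8, 5.61 and 3.96 (-2.02, SE 0.23, adjusted p = 0.0031). Zic2 was lower by 1.60 (adjusted p = 0.026) and Sall2 by 0.93 (adjusted p = 0.016), and both calls were lost without E14 replicate 1 or E14 replicate 3, Zic2's also without LF2 replicate 3 and Sall2's without LF2 replicate 1 (adjusted p up to 0.103 and 0.0623). Otx2 and Lef1 thus stood on opposite sides, though both belong to the same step.

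The Wnt list held the lowest median of the lists, -0.883 over its 14 members of 20 listed genes. No member was higher and 9 were lower, where 7.78% of all genes were, and the count was 9 without LF2 replicate 2 as well. Axin2, a negative feedback component and the standard readout of beta-catenin signalling, read 2.06, 5.47 and 2.11 scaled TPM in LF2 and 20.3, 31.5 and 20.9 in E14 (-2.65, SE 0.33, adjusted p = 0.0037). Sp5, a direct Wnt target that acts as a repressor, read 0.106, 0.399 and 0.114 and 13.6, 24.2 and 12.8 (-3.84, SE 0.25, adjusted p = 9.9e-04). T, the mesoderm factor Brachyury, read 0.07, 0.0507 and 0.0356 and 4.48, 9.23 and 5.14 (-2.74, SE 0.24, adjusted p = 0.0015). In each of these the 3 LF2 libraries were far under the 3 E14 libraries, and LF2 replicate 2 was the highest of its line for Axin2 and Sp5. Sp5, T and Lef1 were under 1 TPM in every LF2 library and passed the filter only through E14. The filter had thus set their direction, which limits the count of lower genes.

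Axin2, Sp5, T and Lef1 were called with each library left out. The secreted Wnt inhibitor Notum was lower by 1.91 (adjusted p = 0.033) and the homeobox gene Cdx1 by 1.75 (adjusted p = 0.032), LF2 replicate 2 lying between the lines in both (1.58, 7.74 and 1.68 against 15, 12 and 14.4 and 0.0818, 2.2 and 0.124 against 4.1, 5.23 and 3.71). Both lost their calls without any of the other 5 libraries (adjusted p up to 0.113). The receptor genes Fzd7 and Fzd5 were lower by 1.02 (adjusted p = 0.015) and 0.75 (adjusted p = 0.045) and the effector Tcf7 by 0.60 (adjusted p = 0.014). All 3 lost their calls without E14 replicate 1 or E14 replicate 3, Fzd5 and Tcf7 also without LF2 replicate 1 or LF2 replicate 3 (adjusted p up to 0.165). Ctnnb1, which encodes beta-catenin itself, read 148, 165 and 146 in LF2 and 178, 242 and 167 in E14 and did not pass (-0.34, SE 0.20, adjusted p = 0.29).

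Of the Wnt list, the promoter of Sp5 carried a match to the TCF and LEF core CTTTGAT, searched on both strands in the 300 bases from 250 before to 50 after the RefSeq start. The 11 list members with an entry in the RefSeq table (GRCm38.p6) held this 1 match, and 2.32% of 8119 matched protein-coding members and 3.75% of 31223 autosomal promoters of the table had one. The 250 bases before the start, at chr2:70474673-70474922 on the plus strand, are shown because Sp5 had the largest difference of the list; capitals mark the match, which begins 104 bases before the start.
Sp5: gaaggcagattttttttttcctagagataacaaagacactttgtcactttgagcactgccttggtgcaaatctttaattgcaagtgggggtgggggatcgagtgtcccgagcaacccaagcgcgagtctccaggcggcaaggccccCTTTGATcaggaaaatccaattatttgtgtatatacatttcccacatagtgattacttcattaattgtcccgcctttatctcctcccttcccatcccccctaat

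ERK feedback and target genes are induced when the pathway that MEK feeds is active. Only 13 of the 28 listed passed the filter in this medium. Dusp2, Dusp4, Dusp5, Spry4, Egr1, Egr3, Fosb, Fosl1 and Phlda1 were under 1 TPM in every library. Of the 13, 4 were lower and 1 higher, with a median of -0.398. Ccnd1, the cyclin D1 gene, read 2.11, 4.14 and 2.26 scaled TPM in LF2 and 25.8, 21.5 and 27.7 in E14 (-2.79, SE 0.22, adjusted p = 0.0012). The feedback inhibitors Il17rd and Spred1 were lower by 1.64 (adjusted p = 0.0023) and 1.34 (adjusted p = 0.0015), Spred1 reading 1.18, 1.03 and 1.21 in LF2 and 4.34, 4.28 and 4.65 in E14. These 3 were called with each library left out. Spry1 was lower by 0.77 (adjusted p = 0.037) and Junb higher by 0.95, SE 0.22, adjusted p = 0.031, and both calls were lost without any 1 of the 5 libraries other than LF2 replicate 2 (adjusted p up to 0.134). Junb lies in a stretch of chromosome 8 where most genes were higher in LF2. Etv5, the most abundant member, read 48.1, 41 and 47.8 and 61.6, 74.7 and 62.9 without overlap and did not pass (-0.53, SE 0.15, adjusted p = 0.054). Of the genes that did not pass the filter, Etv4 had a mean of 0.113 TPM in LF2 and 2.8 TPM in E14. Dusp6 had 0.18 TPM and 2.0 TPM, Etv1 0.33 TPM and 2.68 TPM, and Myc 0.121 TPM and 1.23 TPM. The means of genes that did not pass are of TPM as deposited, without scaling. On these only Fos, Dusp4 and Egr1 had the higher mean in LF2, and Dusp2 was near equal (0.0431 TPM in LF2 and 0.0433 TPM in E14). Fos had 2.47 TPM in LF2 and 0.349 TPM in E14, Dusp4 0.444 TPM and 0.142 TPM, and Egr1 was near the floor in both.

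The LIF and STAT3 list moved less uniformly, with 4 of 13 members higher, 1 lower and a median of 0.096, which was -0.152 without scaling. The kinase genes Pim1 and Pim3, known STAT3 targets, were higher by 1.12, SE 0.12, adjusted p = 0.0028 and 1.48, SE 0.17, adjusted p = 0.003. Pim1 read 40.6, 43.2 and 39.9 scaled TPM in LF2 and 19.7, 17 and 18.7 in E14, with all 3 LF2 libraries close together. With Socs3 they were called when each library was left out. Lifr, the LIF receptor, was lower by 0.60 (adjusted p = 0.036), a call lost without LF2 replicate 1, LF2 replicate 3, E14 replicate 1 or E14 replicate 3 (adjusted p up to 0.127), and Stat3 read 7.23, 5.37 and 7.26 and 6.12, 4.98 and 7.32 with overlapping lines (0.10, SE 0.17, adjusted p = 0.74).

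Among 14 members of the DNA methylation machinery, Tet1 was the 1 gene called, and the median of the list was -0.296. The maintenance methyltransferase gene Dnmt1 read 22.9, 36.6 and 25.5 scaled TPM in LF2 and 35.3, 27.4 and 38.9 in E14 (-0.26, SE 0.22, adjusted p = 0.46) and its partner Uhrf1 50, 78.4 and 50.2 and 92.7, 49.9 and 94 (-0.38, SE 0.30, adjusted p = 0.44), the lines overlapping in both. The de novo methyltransferases Dnmt3a and Dnmt3b differed by -0.65, SE 0.29, adjusted p = 0.17 and -0.80, SE 0.31, adjusted p = 0.12. Their cofactor Dnmt3l read 17.3, 2.89 and 16.8 in LF2 and 5.69, 4.25 and 5.75 in E14, LF2 replicate 2 being the lowest of all 6 libraries (0.81, SE 0.58, adjusted p = 0.38). Tet2 differed by 0.38, SE 0.41, adjusted p = 0.56. Without LF2 replicate 2 the list had 2 higher and 2 lower genes.

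Germline genes with CpG-rich promoters are held silent by DNA methylation in most cells and are known to be expressed at low levels in hypomethylated stem cells. The list held 24, of which 18 were members, 12 of them higher in LF2 and 1 lower, where 9.1% and 7.78% of all genes were, with a median of 1.52. Without LF2 replicate 2, 14 were higher and 2 lower. Smc1b, a meiotic cohesin subunit, had the largest called difference, at 12, 2.26 and 13.3 scaled TPM in LF2 and 0.338, 0.342 and 0.235 in E14 (2.70, SE 0.54, adjusted p = 0.018). Syce1, of the synaptonemal complex, read 18.1, 10 and 17.2 and 3.93, 2.02 and 3.22 (1.98, SE 0.27, adjusted p = 0.0054), the meiotic chromosome gene Hormad1 45.3, 26.6 and 39.7 and 13.4, 15.3 and 11.1 (1.40, SE 0.22, adjusted p = 0.0089) and the testis bromodomain gene Brdt 4.15, 1.89 and 3.74 and 0.31, 0.224 and 0.166 (1.75, SE 0.24, adjusted p = 0.0051). In all 4, LF2 replicate 2 was the lowest LF2 library and above every E14 library. Smc1b and Brdt were under 1 TPM in every E14 library and passed the filter only through LF2, which limits the count of higher genes.

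Syce1, Hormad1 and Brdt were called with each library left out. Of the piRNA pathway genes, Piwil2 was higher by 2.14, SE 0.36, adjusted p = 0.011, Mov10l1 by 1.65, SE 0.30, adjusted p = 0.014 and Mael by 0.89, SE 0.17, adjusted p = 0.015. Fkbp6 was higher by 2.02, SE 0.52, adjusted p = 0.04, Stk31 by 0.94, SE 0.18, adjusted p = 0.016, Stra8, which starts meiosis, by 1.07, SE 0.23, adjusted p = 0.022, Slc25a31 by 1.39, SE 0.34, adjusted p = 0.037 and Tuba3b, a copy close to Tuba3a in sequence, by 1.83, SE 0.41, adjusted p = 0.028. These 8 calls and that of Smc1b were each lost without E14 replicate 1 and without E14 replicate 3, all but Piwil2's without LF2 replicate 1, all but Piwil2's and Mov10l1's without LF2 replicate 3, and those of Slc25a31, Tuba3b, Fkbp6 and Smc1b without E14 replicate 2 (adjusted p up to 0.123). Tex15 was lower by 1.16 (adjusted p = 0.042), a call lost without any 1 of the 5 libraries other than LF2 replicate 2 (adjusted p up to 0.0985).

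Dazl, a germ cell RNA-binding protein, was the most abundant gene of the list in LF2 replicates 1 and 3, at 104, 14.9 and 100 scaled TPM in LF2 replicates 1 to 3 and 7.65, 14 and 6.68 in E14. LF2 replicate 2 was next to E14 replicate 2, and the difference did not pass (2.47, SE 0.73, adjusted p = 0.061); without LF2 replicate 2 it was 3.37 (adjusted p = 0.0011). Sycp3, of the synaptonemal complex, read 39, 5.13 and 33.3 and 3.83, 9.55 and 3.56, LF2 replicate 2 lying under E14 replicate 2 (1.73, SE 0.73, adjusted p = 0.15, and 2.59 without LF2 replicate 2, adjusted p = 0.0049). Of the 6 listed genes that did not pass the filter, Asz1 had a mean of 4.35 TPM in LF2 and 0.0547 TPM in E14.

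Of the 18 members 16 had an entry in the RefSeq promoter table, and 8 of these held the E-box CACGTG in the 300 bases, counted on both strands of a palindrome. It was present in 10.9% of 8119 matched protein-coding members and in 7.16% of all 31223 autosomal promoters of the table. The 4 with the largest called differences among the 8 are shown, with the motif in capitals, as the bases from 250 before the RefSeq start up to the first base that either RefSeq or GENCODE places in the transcript. They are Fkbp6 at chr5:135350045-135350294 on the minus strand, Brdt at chr5:107330944-107331158, Mov10l1 at chr15:88982744-88982908 and Hormad1 at chr3:95559427-95559676, all on the plus strand, each printed on the strand of its gene. Fkbp6 and Hormad1 hold 2 copies each and the others 1, and a match describes the letters only.
Fkbp6: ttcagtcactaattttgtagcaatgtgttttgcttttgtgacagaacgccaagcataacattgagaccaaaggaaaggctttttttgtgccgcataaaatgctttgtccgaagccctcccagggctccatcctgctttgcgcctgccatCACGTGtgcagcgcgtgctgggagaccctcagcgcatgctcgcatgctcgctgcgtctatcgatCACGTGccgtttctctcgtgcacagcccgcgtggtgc
Brdt: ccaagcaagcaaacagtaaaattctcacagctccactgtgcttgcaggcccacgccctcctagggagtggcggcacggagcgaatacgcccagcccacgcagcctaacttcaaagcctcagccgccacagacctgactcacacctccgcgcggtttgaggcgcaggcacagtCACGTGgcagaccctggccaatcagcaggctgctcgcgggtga
Mov10l1: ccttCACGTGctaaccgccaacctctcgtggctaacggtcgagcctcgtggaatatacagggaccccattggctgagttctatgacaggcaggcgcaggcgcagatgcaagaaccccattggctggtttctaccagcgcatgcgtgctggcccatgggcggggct
Hormad1: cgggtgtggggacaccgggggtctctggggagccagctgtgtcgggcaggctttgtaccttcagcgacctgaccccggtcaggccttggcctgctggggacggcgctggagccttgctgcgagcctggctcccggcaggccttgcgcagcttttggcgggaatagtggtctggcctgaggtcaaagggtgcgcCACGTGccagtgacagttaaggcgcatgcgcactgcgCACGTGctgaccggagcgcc

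The PRAME-family and early embryo list had 8 members of 16 listed, 5 of them higher, none lower, and a median of 1.082. Beside Pramel6 and Pramel7, the oocyte and embryo gene Khdc3 read 2.86, 1.84 and 3.16 scaled TPM in LF2 and 0.515, 0.432 and 0.466 in E14 (1.28, SE 0.18, adjusted p = 0.0057), and these 3 were called with each library left out. The homeobox gene Crxos read 188, 283 and 163 and 34.4, 81.4 and 32.3, LF2 replicate 2 being the highest (2.17, SE 0.39, adjusted p = 0.013), and Ooep was higher by 0.88, SE 0.17, adjusted p = 0.015. Both calls were lost without E14 replicate 1 or E14 replicate 3, and that of Ooep also without LF2 replicate 1 (adjusted p up to 0.0746). Pramel6, Pramel7 and Khdc3 were under 1 TPM in every E14 library and passed the filter only through LF2. None of the 15 genes of the 2-cell-like programme, the Zscan4 genes among them, reached 1 TPM in any library.

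Imprinted genes are expressed from 1 parental copy under control of inherited methylation. Of 36 listed, 23 were members, 5 higher and 6 lower with a median of -0.054, and 9 of these 11 were called with each library left out. Plagl1, a zinc finger gene, read 19.8, 23.1 and 23 scaled TPM in LF2 and 0.698, 0.662 and 0.85 in E14 (3.73, SE 0.12, adjusted p = 1.4e-04). Sgce and Peg10, paternally expressed neighbours on chromosome 6, read 14.5, 6.12 and 13.2 and 7.34, 6.49 and 8.73 in LF2 and 0.185, 0.74 and 0.251 and 0.494, 0.896 and 0.577 in E14 (3.08, SE 0.32, adjusted p = 0.0024 and 2.36, SE 0.16, adjusted p = 9.9e-04). H19, a maternally expressed noncoding RNA at chr7:142575529-142578143 (GRCm38), read 2.6, 5.4 and 2.63 and 0.0388, 0.0712 and 0.00626 (2.08, SE 0.24, adjusted p = 0.0034). In each, E14 was under 1 scaled TPM in all 3 libraries. Sgce, Peg10 and H19 were also under 1 deposited TPM in every E14 library and passed the filter only through LF2, which limits the count of higher genes.

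Rian and Mirg, maternally expressed noncoding RNAs of the Dlk1 domain on chromosome 12, were lower, Rian at 16.4, 14.4 and 16.5 scaled TPM in LF2 and 56.2, 91.4 and 57.3 in E14 (-2.01, SE 0.21, adjusted p = 0.0025) and Mirg at 3.65, 4.82 and 4.41 and 17.6, 20.6 and 17.3 (-1.88, SE 0.14, adjusted p = 0.001). LF2 replicate 2 lay with its own line in both. Grb10, an adaptor that restrains growth factor signalling, read 6.49, 6.96 and 6.43 and 23.2, 19.6 and 24 (-1.60, SE 0.13, adjusted p = 0.0013), the paternally expressed Mest 2.1, 2.96 and 2.06 and 15.2, 7.65 and 14.3 (-1.94, SE 0.26, adjusted p = 0.0049) and Phlda2, a growth restraint of the placenta, 1.59, 0.131 and 1.35 and 10.2, 14.1 and 6.08 (-2.48, SE 0.39, adjusted p = 0.0083). Zdbf2 was lower by 1.81 (adjusted p = 0.033) and Snrpn higher by 0.64, SE 0.17, adjusted p = 0.045, and both calls were lost without LF2 replicate 1, LF2 replicate 3, E14 replicate 1 or E14 replicate 3, that of Snrpn also without E14 replicate 2 (adjusted p up to 0.147). Slc38a4, an amino acid transporter, read 61.1, 12.5 and 59.3 and 12.8, 22.4 and 12.1, LF2 replicate 2 lying with E14 (1.19, SE 0.60, adjusted p = 0.22). Expression by parental copy was not measured.

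Glycolysis genes had a median of -0.44 over all 20 members, with 4 lower and 1 higher. The enolase gene Eno1 read 29.4, 105 and 28.3 scaled TPM in LF2 and 186, 153 and 172 in E14 (-1.91, SE 0.48, adjusted p = 0.039), the lactate dehydrogenase gene Ldha 55.9, 97.3 and 52.2 and 174, 112 and 152 (-1.11, SE 0.29, adjusted p = 0.042) and the aldolase gene Aldoa 220, 301 and 216 and 521, 384 and 474 (-0.91, SE 0.23, adjusted p = 0.037). In each, LF2 replicate 2 was the LF2 library closest to E14. Pdk1, which switches pyruvate away from mitochondria, was lower by 1.62 (adjusted p = 0.02), and the hexokinase gene Hk2 higher by 0.95, SE 0.23, adjusted p = 0.036. Hk2 lies in a stretch of chromosome 6 where most genes were higher in LF2. No call of the list held with each library left out: all 5 were lost without E14 replicate 1, all but Pdk1's without LF2 replicate 1 or LF2 replicate 3, all but Hk2's without E14 replicate 3, and those of Eno1 and Pdk1 without E14 replicate 2 (adjusted p up to 0.161). Without LF2 replicate 2 there were 3 higher and 10 lower genes. Pkm and Gapdh read 107, 266 and 105 and 711, 988 and 631 in LF2 and 445, 305 and 413 and 1610, 1140 and 1400 in E14, without overlap and without a call (-1.41, SE 0.39, adjusted p = 0.051 and -0.84, SE 0.28, adjusted p = 0.088).

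In 5 more lists at most 1 gene was called in each direction, against 9.1% higher and 7.78% lower over all genes. Of 15 threonine, serine and one-carbon genes 1 was lower, the threonine dehydrogenase gene Tdh at 77.7, 183 and 74.6 scaled TPM in LF2 and 254, 255 and 238 in E14 (-1.28, SE 0.35, adjusted p = 0.049), with LF2 replicate 2 between the lines. Of 14 p53 targets and cell cycle inhibitors 1 was lower, Cdkn1a, the p21 gene, by 1.16 (adjusted p = 0.02). Of 20 polycomb members Eed was higher by 0.50, SE 0.14, adjusted p = 0.047 and Cbx7 lower by 0.74 (adjusted p = 0.036), and the list had 6 higher and 3 lower genes without LF2 replicate 2. Of 6 antigen presentation members the peptide-loading gene Tapbp was lower by 0.78 (adjusted p = 0.014). Each of these 5 calls was lost without LF2 replicate 1 and without E14 replicate 3, Tdh's, Eed's, Cbx7's and Cdkn1a's without LF2 replicate 3, all but Cdkn1a's without E14 replicate 1, and Tdh's and Eed's without E14 replicate 2 (adjusted p up to 0.21). Of 72 cytoplasmic ribosomal protein genes none was called by limma, and their median was -0.008 with scaling and 0.041 with TPM rescaled over protein-coding genes; without LF2 replicate 2, 1 was called. Medians of the one-carbon, antigen presentation and polycomb lists were 0.222, 0.176 and 0.181, and -0.038, -0.02 and -0.063 without scaling.

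Markers of other cell types were low in both lines. Of 16 primitive endoderm markers 11 were under 1 scaled TPM in all 6 libraries, among them Gata4, Sox17 and Pdgfra, and the summed level was 49.2 to 53.7 in LF2 and 40.2 to 47.8 in E14, most of it from Sparc and Lama1, which were not called. Of the rest, Gata6 had a mean of 1.96 TPM in LF2 and 0.0605 TPM in E14, and Dab2 2.66 TPM and 0.151 TPM. Of 12 feeder fibroblast markers 9 were under 1, among them Col1a1 and Col1a2, and the sum, 35.4 to 79.5 in LF2 and 64.6 to 115 in E14, came mostly from Fn1, at 62.3, 34.2 and 77.8 and 68.1, 62.2 and 113. Of 10 trophoblast markers in the table Prl3d1 was at 0 and Elf5, Hand1 and Ascl2 under 1 throughout, and the sum was 35.8 to 61.4 in LF2 and 24.0 to 35.9 in E14. In LF2 replicates 1 and 3 much of it came from the keratin gene Krt18. This gene split both lines, at 30.7, 4.16 and 28.7 in LF2 and 3.51, 12.7 and 2.71 in E14 (1.47, SE 0.80, adjusted p = 0.25). Tfap2c read 13, 14.6 and 13.4 in LF2 and 2.42, 1.04 and 2.55 in E14 (2.33, SE 0.23, adjusted p = 0.0019) and Gata3 was higher by 1.53, SE 0.15, adjusted p = 0.0018, while Cdx2 was lower by 1.97 (adjusted p = 0.011) and Eomes by 0.97 (adjusted p = 0.018). The call of Eomes was lost without LF2 replicate 1, LF2 replicate 3, E14 replicate 1 or E14 replicate 3 (adjusted p up to 0.083). Mesoderm and neural markers summed to 1.58 to 3.14 in LF2 and 11.6 to 15.0 in E14, where T, Tubb3 and Nes were the members and T was called; Mesp1, Mixl1, Pax6 and Sox1 were under 1 in all. The part of other cell types in the differences above was not tested.

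The differences were not spread evenly over the chromosomes. The median over the 624 members on chromosome 8 was 0.263, and those of the other 18 autosomes lay between -0.078 for chromosome 17 and 0.061 for chromosome 12, a spread of 0.341 between the highest and the lowest. On chromosome 8, 131 of the 624 genes were higher and 27 lower. The plot of chromosome medians shows that all 3 LF2 libraries shared it, at 0.274, 0.258 and 0.252 against 0.003, 0.004 and -0.014 in the E14 libraries, so that LF2 replicate 2 did not stand apart here. In EpiLC, made from other libraries of the same lines, the median of chromosome 8 was 0.198. Genes on 1 chromosome are not replicates, and these medians carry no test.

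**Figure D3:**
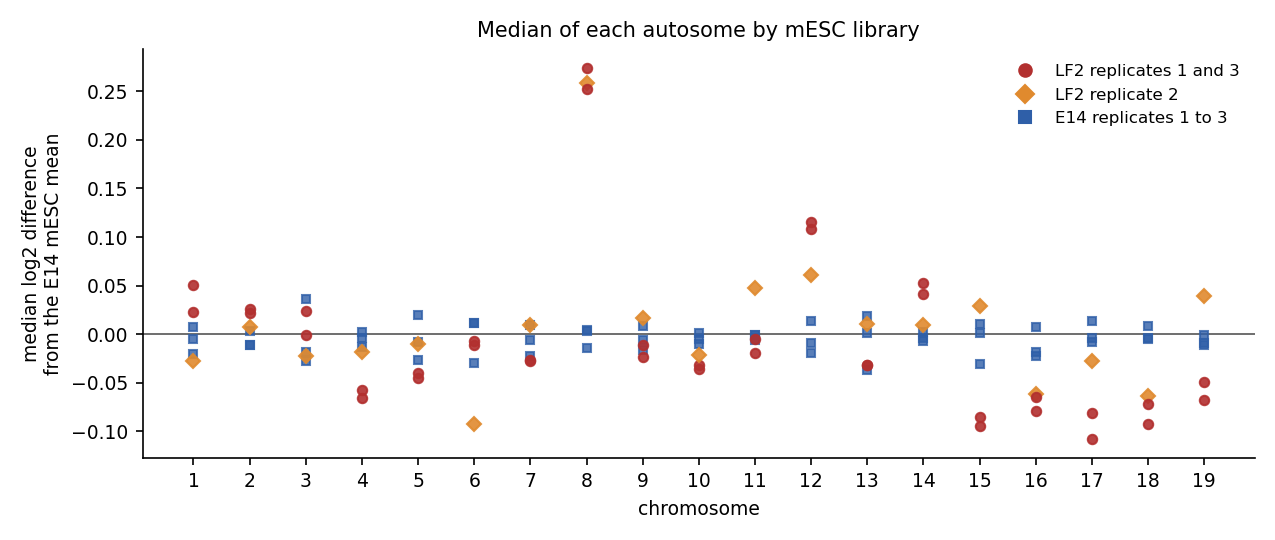
Median log2 difference of the members on each autosome (x axis) from the E14 mESC mean, 1 point per mESC library. On chromosome 8 the LF2 libraries lie at 0.274, 0.258 and 0.252 and the E14 libraries at 0.003, 0.004 and -0.014, while LF2 medians of the other chromosomes stay between -0.108 and 0.115.

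Within chromosome 8 the difference began part of the way along. The 273 protein-coding members before Mmaa, from 3122061 to 78821140 (GRCm38), had a median of -0.009, and 255 members in 3 runs between 79263598 and 124949324 had a median of 0.484. A run was taken as a stretch where the running median of 25 neighbouring protein-coding members stayed at 0.35 or beyond for at least 20 positions, a rule chosen after the values were seen. Runs were thus picked on these mESC differences, and the mESC counts of higher and lower genes inside a run follow in part from the rule. Of the 255 genes 229 were above 0, 91 were called higher and 6 lower. Among the called genes described here, the runs held Gabarapl2, Junb of the ERK list and, in the window from 90 to 100 Mb, Herpud1, a stress-induced protein of the endoplasmic reticulum membrane (1.20, SE 0.20, adjusted p = 0.01). The noncoding RNA gene Crnde in that window differed by 1.32, SE 0.21, adjusted p = 0.0083.

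Chromosome 6 held the steepest run, 54 genes from Gng12 to Dguok at chr6:66896397-83506969, with a median of 0.812. In it 33 genes were higher and none was lower, 51 of 54 lay above 0, and the LF2 libraries had medians of 0.756, 0.865 and 0.69. On a plain log2 scale, over its 19 genes of at least 5 scaled TPM in every library, the median was a 1.94-fold higher level in LF2. Its genes with the largest called differences were Capg, an actin filament capping protein, at 19, 11.2 and 17.7 scaled TPM in LF2 and 1.82, 4.83 and 1.03 in E14 (2.37, SE 0.40, adjusted p = 0.01), the retinol saturase gene Retsat at 13, 9.66 and 13.8 and 1.47, 3.51 and 1.28 (2.15, SE 0.28, adjusted p = 0.0045) and the vesicle fusion gene Vamp8 at 35.1, 23.1 and 30.3 and 8.21, 9.85 and 6.84 (1.71, SE 0.20, adjusted p = 0.0033). A run of 55 genes from Rbm25 to Gm5662 at chr12:83631236-88274500 had a median of 0.786, with 34 genes higher, none lower and a 1.76-fold level on the plain scale over 30 genes; Esrrb lies in it. A shorter run of 38 genes from Crybb3 to Cox6a1 at chr5:113075839-115348981 had a median of 0.432, with 12 genes higher and none lower.

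A single run went down, 38 genes from Gm4631 to Mtg2 at chr2:175321955-180085902, many of them zinc finger gene models that resemble each other, with a median of -0.476, 15 genes lower and none higher. Gm14412 in it read 5.19, 7.9 and 5.67 scaled TPM in LF2 and 32.4, 19.4 and 35.4 in E14 (-2.02, SE 0.26, adjusted p = 0.004), and Gm14411, near it, was lower by 1.81 (adjusted p = 9.9e-04). Values of such near-identical copies depend on how reads were divided between them. The runs higher in LF2 held 402 members (3.5% of all) and 170 of the 1045 higher calls (16.3%). An excess of higher calls there follows from picking the runs on these same differences. Protein-coding members outside all runs had a median of -0.019, with 8.16% higher and 7.32% lower. Copy number was not measured.

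**Figure D4:**
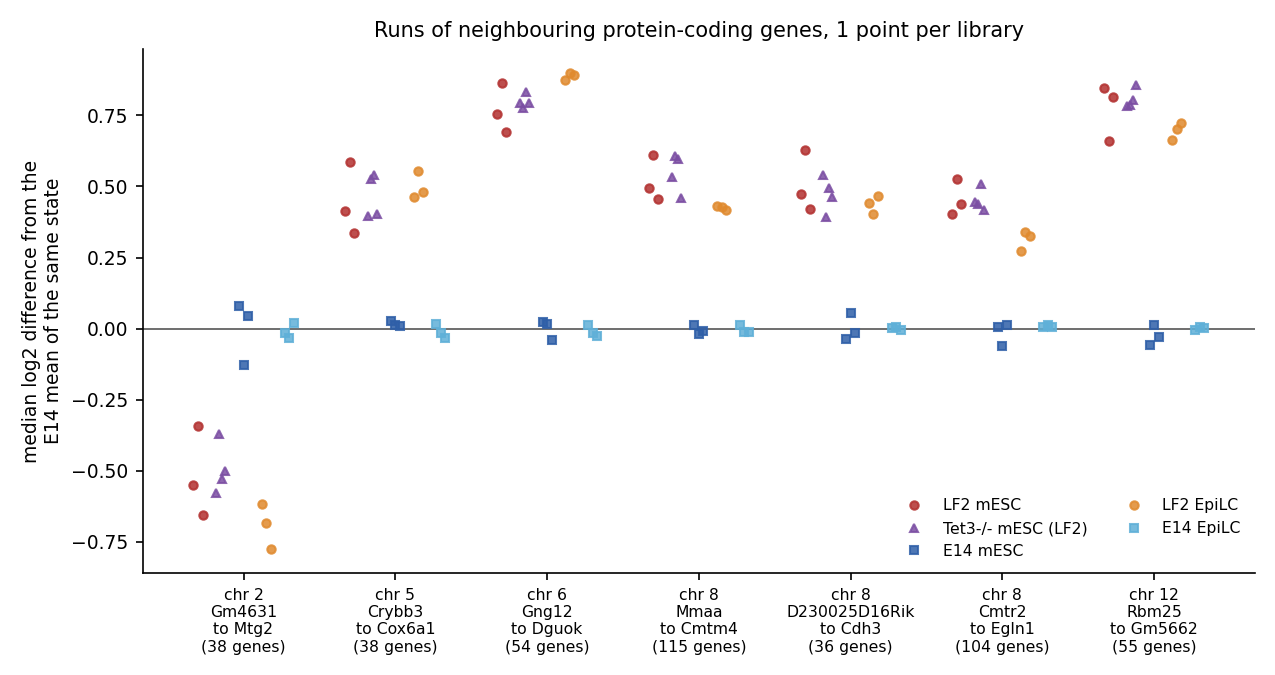
Median log2 difference of each run of neighbouring protein-coding genes from the E14 mean of the same culture state (y axis), 1 point per library, for LF2, Tet3-/- and E14 mESC and for LF2 and E14 EpiLC. In the chromosome 6 run the LF2 mESC libraries lie at 0.756, 0.865 and 0.69 and the LF2 EpiLC libraries at 0.875, 0.899 and 0.893, and no LF2 library of any run overlaps the E14 libraries of its state. The runs were picked on the mESC values.

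The same runs were present in EpiLC, with medians of 0.903 on chromosome 6, 0.689 on chromosome 12, 0.517 on chromosome 5, 0.393 over the 3 on chromosome 8 and -0.754 on chromosome 2. The 4 Tet3-/- mESC libraries, which are also of the LF2 line but are set against the same E14 libraries, read 0.795, 0.775, 0.832 and 0.794 in the chromosome 6 run and 0.784, 0.788, 0.805 and 0.858 in the chromosome 12 run. 2 other windows among the extremes had a median of the opposite sign in EpiLC. The window from 10 to 20 Mb of chromosome 2 had a mESC median of 0.663 over 55 members and an EpiLC median of -0.238; 27 of its members were protein-coding, with a median of 0.315, and its leading genes were the small RNA models Gm26073, Mir669i and Gm25451 (3.10, 2.33 and 2.26), of which Mir669i lost its call without LF2 replicate 1, LF2 replicate 3 or E14 replicate 1 (adjusted p up to 0.0997). The end of chromosome 18 from 80 Mb had -0.316 over 21 members in mESC and 0.047 in EpiLC, with Sall3 lower by 2.00 (adjusted p = 0.0013) and Cndp2 higher by 1.26, SE 0.18, adjusted p = 0.0067. The start of chromosome 9 up to 10 Mb had the lowest median, -0.397 over 23 members, and kept its sign in EpiLC at -0.629; Gucy1a2 and Msantd4 were its called genes (-1.02 and -0.56), both lost without LF2 replicate 1, LF2 replicate 3, E14 replicate 1 or E14 replicate 3 (Msantd4 also without E14 replicate 2, adjusted p up to 0.14).

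The line difference was then set beside that in EpiLC, over the same 11486 genes, to see where it depended on the culture state. In EpiLC 2120 genes were higher in LF2 (18.5% called) and 1928 lower (16.8% called), 35.2% in either direction. Of the 1045 genes higher in mESC, 799 (76.5%) had the same sign in EpiLC, 499 (47.8%) were also called higher and 61 called lower; the 499 were 23.5% of the EpiLC calls in that direction. Of the 894 lower genes 614 (68.7%) had the same sign, 361 (40.4%) were also called lower, 18.7% of the EpiLC calls, and 105 were called higher. The difference of the line differences passed for 2703 genes (23.5% called), 1292 of them with the mESC difference above that in EpiLC, and for 562 of the 1045 and 519 of the 894. Without LF2 replicate 2 it passed for 4716 genes. The 1045 and 894 genes were chosen on mESC libraries that also enter this test, so selection alone raises the counts of 562 and 519.

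**Figure D5:**
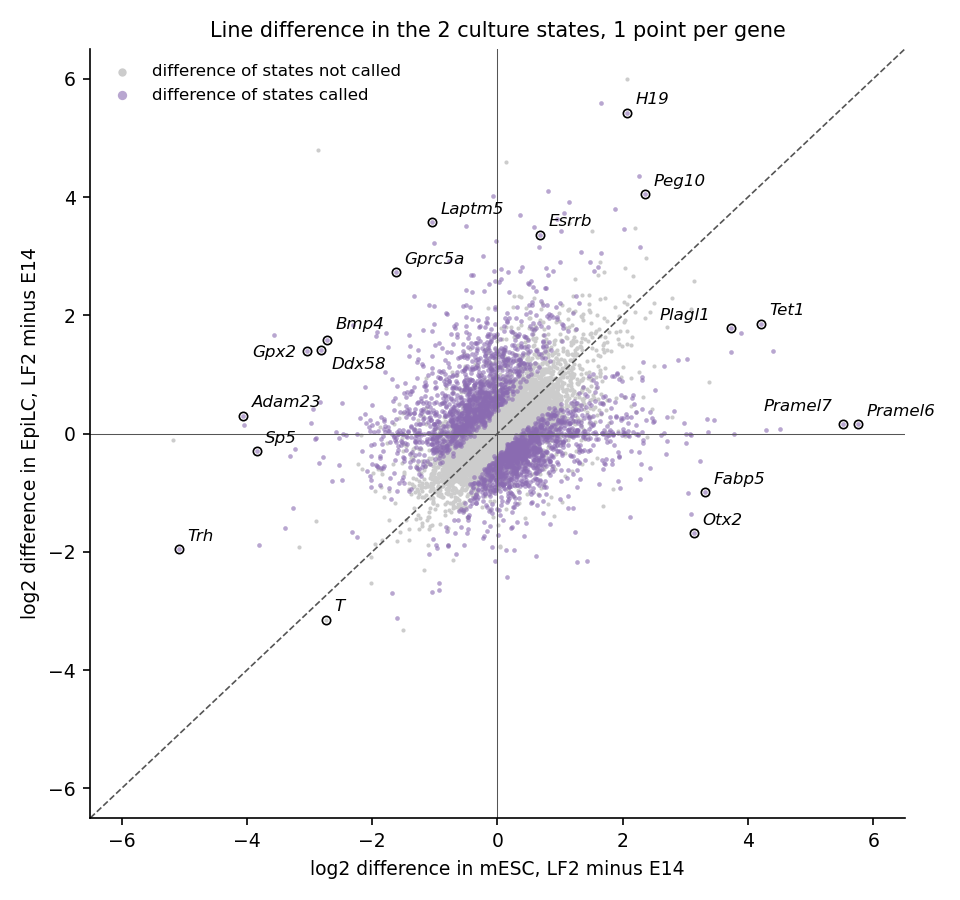
Log2 difference between LF2 and E14 in EpiLC (y axis) against that in mESC (x axis), 1 point per member; purple points are the 2703 genes whose difference between the states was called, and the dashed line marks equal differences. Pramel6 lies at 5.76 in mESC and 0.16 in EpiLC, Laptm5 at -1.04 and 3.57, and T close to the line at -2.74 and -3.15.

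Several leading genes differed between the lines in mESC and little in EpiLC, and others had the opposite sign there. Pramel6 read 0.144, 0.188 and 0.112 scaled TPM in LF2 EpiLC and 0.0857, 0 and 0 in E14 EpiLC, so the gene was near the floor in both, and the difference of the line differences was 5.70, adjusted p = 1.0e-04. Pramel7 gave 5.49, adjusted p = 4.3e-06. Otx2 turned round, at 13, 12.6 and 12.3 in LF2 EpiLC and 41.1, 43.4 and 44.3 in E14 EpiLC, an EpiLC difference of -1.69 (4.89, adjusted p = 9.0e-07 for the difference of states). Fabp5 also had the opposite sign in EpiLC (-0.99), and Trio, a guanine nucleotide exchange factor not called in mESC (1.27, SE 0.36, adjusted p = 0.055), had -2.18 there, with differences of states of 4.32, adjusted p = 1.3e-05 and 3.49, adjusted p = 3.0e-04. Cd24a and Adam23 were equalised from the other side, at 65.2, 54.8 and 56 and 42.2, 47.1 and 46.3 in LF2 EpiLC and 61.1, 47.9 and 50.2 and 31.7, 37.4 and 40.8 in E14 EpiLC.

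Other genes were lower in LF2 mESC and higher in LF2 EpiLC. Laptm5, a lysosomal membrane protein, read 9.21, 16 and 9.01 in LF2 mESC and 22.9, 21.7 and 26.7 in E14 mESC (-1.04, SE 0.23, adjusted p = 0.025, lost without any 1 of the 5 libraries other than LF2 replicate 2, adjusted p up to 0.0982), but 13.1, 16.4 and 15.4 and 0.495, 0.233 and 0.3 in EpiLC, where E14 had fallen near the floor (-4.62, adjusted p = 1.5e-06 for the difference of states). The retinoic acid-induced receptor gene Gprc5a read 1.2, 1.06 and 1.16 and 6.1, 5.05 and 5.72 in mESC and 5.49, 5.91 and 6.32 and 0.0715, 0.0382 and 0.00903 in EpiLC (-4.41, adjusted p = 1.6e-08). Gpx2, Bmp4, a signalling ligand, and Ddx58, the RIG-I sensor of viral RNA, had mESC differences of -3.04, -2.71 and -2.82 and EpiLC differences of 1.40, 1.59 and 1.41.

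The naive list had a median of 0.498 in mESC and 1.265 in EpiLC, where 12 of the 16 were higher in LF2 and none lower (18.5% and 16.8% of all genes), and the difference of states was called for 10, of which 8 were negative. Esrrb read 13.9, 14.9 and 14.4 scaled TPM in LF2 EpiLC and 0.635, 0.518 and 0.346 in E14 EpiLC (-2.68, adjusted p = 3.9e-06), all 3 E14 EpiLC libraries lying under 1. Zfp42, lower in LF2 mESC, was higher in LF2 EpiLC, at 21.1, 18.9 and 19.6 and 5.03, 4.59 and 4.7 (-2.87, adjusted p = 1.1e-05). Klf4 stayed higher in LF2 EpiLC, at 1.32, 1.54 and 1.46 and 0.235, 0.22 and 0.236. Its difference of states on log2(scaled TPM + 1) did not pass (0.06, adjusted p = 0.76). All 3 E14 EpiLC libraries were under 1, where that scale understates a change, so the ratio between the lines was not kept. The core list went from a median of -0.398 in mESC to 0.763 in EpiLC, with 5 differences of states called under 0 and 1 above, and the ERK list from -0.398 to 0.364, with 9 of 13 called under 0 and none above (12.3% and 11.2% of all genes). In the Wnt list, 5 of 14 were lower in EpiLC, where 16.8% of all genes were; T read 1.13, 0.56 and 1.04 and 13.6, 16.6 and 17.5 and its difference of states did not pass (0.28, adjusted p = 0.56), whereas Sp5, at 0.125, 0.0321 and 0.11 and 0.298, 0.333 and 0.368, and Ccnd1 of the ERK list, at 10.3, 10.8 and 11.3 and 14.5, 15 and 14.1, lost most of theirs (-3.68, adjusted p = 1.4e-05 and -2.43, adjusted p = 4.9e-05).

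Of the germline list 8 of 18 were higher in EpiLC and none lower, where 18.5% and 16.8% of all genes were, with a median of 0.598. Hormad1 stayed higher in LF2 EpiLC at lower levels, at 2.55, 2.3 and 1.85 scaled TPM in LF2 and 0.0888, 0.0561 and 0.0342 in E14, which was near the floor. Dazl was under 1 in all 6 EpiLC libraries. Tet1 remained higher in LF2 EpiLC, at 16.2, 20.9 and 18.3 against 4.02, 4.27 and 4.73, with a smaller difference than in mESC (2.46, adjusted p = 1.7e-05). Of the imprinted genes, H19 and Peg10 widened in EpiLC: H19 read 51.1, 49.3 and 50.9 in LF2 and 0.333, 0.214 and 0.0572 in E14 (-3.23, adjusted p = 1.8e-05) and Peg10 72.5, 85.1 and 78.8 and 3.77, 3.65 and 3.97 (-1.61, adjusted p = 1.2e-04). Grb10 kept its difference, at 16.9, 16.8 and 16.5 and 59.9, 61.2 and 63 (0.20, adjusted p = 0.27), and Mest reversed, at 25.8, 26.1 and 25.1 and 7.93, 7.42 and 7.24 (-3.62, adjusted p = 1.4e-05). The Tet3-/- mESC libraries, read on a scale set over all 19 libraries, had 27, 22.8, 24.3 and 33.8 for Tet1 and 18.4, 21.8, 22.6 and 28.7 for Plagl1; they share the E14 libraries as the other side of any comparison, so none is drawn from them here.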

How the data were processed

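The authors deposited TPM per transcript for 19 libraries of stranded, rRNA-depleted total RNA. FastQC 0.11.7, Trimmomatic 0.35, Salmon 1.1.0 and GRCm38 are named per the submitters' processing notes, and their roles and settings, strand included, are not given in the sources used here. TPM keeps no depth, so no counting interval can be given.

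TPM was summed per gene through GENCODE M21 (139357 of 140948 transcripts matched with their version, 495 without it; the 1096 unmatched held 0.0454% to 0.2149% of TPM). Genes of chromosomes 1 to 19 with TPM of at least 1 in at least 3 of the 6 mESC libraries were scaled by the median of ratios and set as log2(scaled TPM + 1) from the deposited TPM. The test was limma 3.58.1 (R 4.3.3; lmFit and eBayes with a trend), with Benjamini-Hochberg adjustment over all 11486 genes and a threshold of 0.05. The same genes were fitted in EpiLC, and the difference of differences over 12 libraries with their own scaling. Tables were made with Python 3.11.15 and pandas 2.3.3. On simulated data with 200 genes changed, the mESC fit recovered 41% of genes changed by 1 and 80% of those changed by 2 on the log2 scale, with 6 false calls among 127. The simulated noise was independent between genes and libraries, and many more genes, 1939, were called in the data. These rates need not hold for the real libraries.

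Genes that may be named were the listed and marker genes, the 15 highest and 15 lowest called differences without overlap and with a mean of at least 5 scaled TPM in the higher line (no pseudogenes, Gm-numbered or Rik models), the 6 most abundant called protein-coding genes in each direction, the 3 largest called genes in each of the 3 highest and 3 lowest 10 Mb windows of at least 20 genes, and the 6 largest changes between culture states in each direction. The members, lists and rules were chosen with earlier results of these data known. Alternatives were other scalings, pseudocounts, filters, fits and left-out libraries. The plain log2 scale of runs and the protein-coding chromosome spread were added after seeing the data. A gene selected by these rules is not reported here. Promoter sequences are RefSeq's (GRCm38.p6).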

Additional observations from a re-analysis of the deposited data

Results flagged for a closer look

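The difference between LF2 and E14 changed with the culture state for 2703 of the 11486 genes (limma, a test of the mESC difference minus the EpiLC difference, adjusted p under 0.05). For the genes named in the report that passed, the value is that difference of log2 differences, and a positive value means that LF2 stood higher against E14 in mESC than in EpiLC. Genes named for a large mESC difference were chosen on libraries that also enter this test.

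Among the genes leading the comparison, the values above 0 were Pramel6 5.7, Pramel7 5.49, Otx2 4.89, Fabp5 4.32, Atg16l2 3.77, Trio 3.49, Vnn1 3.35, Wfdc15a 3.13, Slc1a1 3.12, Igfbp2 3.06, Tet1 2.46, Aqp3 2.36, Htra1 2.25, Plagl1 2.03, Des 1.84, Gabarapl2 1.4 and Rnf7 0.86. The values under 0 were Laptm5 -4.61, Gpx2 -4.48, Adam23 -4.48, Gprc5a -4.41, Bmp4 -4.38, Ddx58 -4.34, Cd24a -4.24, Hspb1 -3.69, Sp5 -3.68, Mylpf -3.66, Fgfbp1 -3.43, Trh -3.27, Ccdc141 -3.21, Nkx1-2 -3.08, Fstl1 -3.02, B3gnt7 -2.92, Pdzrn4 -2.92, Tdh -2.69, Sulf1 -2.15, Fst -2.0, Id3 -1.92, Cd9 -1.87, Taf1d -1.68 and Pabpc1 -0.62.

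The other naive, core and formative genes named in the report, beside Otx2 and Fst above, gave Nanog 0.86, Sall2 1.67, Zic2 1.46, Socs3 1.17, Zfp42 -2.87, Esrrb -2.68, Gbx2 -2.61, Sox2 -2.61, Dppa2 -2.4, Klf5 -1.89, Dppa4 -1.83 and Klf2 -1.49. In the pathway lists the values that passed were negative for the genes named, Socs3 apart: Ccnd1 -2.43, Notum -1.99, Cdx1 -1.96, Axin2 -1.89, Spry1 -1.76, Stat3 -1.07, Junb -0.97, Spred1 -0.95, Lifr -0.71, Etv5 -0.67, Tcf7 -0.63 and Pim1 -0.61.

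Germline and early embryo genes lay on both sides, and 3 members not named in the report also passed, Tex19.1 at -1.89, Rpl10l at -1.0 and Pramef12 at -2.43. Those named there gave Tuba3b 1.92, Brdt 1.71, Crxos 1.53, Syce1 1.36, Stra8 1.05, Khdc3 0.95 and Ooep -1.09. Imprinted genes and genes of the methylation machinery gave Mest -3.62, Dnmt3l -3.29, H19 -3.23, Phlda2 -1.77, Rian -1.63, Peg10 -1.61, Mirg -1.04, Snrpn 0.96 and Dnmt3b 1.08.

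Genes of the windows along the chromosomes gave Gm26073 4.59, Gm25451 2.71, Mir669i 2.51, Crnde 2.17, Cndp2 0.84, Herpud1 0.83, Sall3 -1.61, Gm14411 -1.33 and Gm14412 -1.13. Markers of other cell types gave Tfap2c 1.18, Gata3 0.73, Lama1 1.25, Tubb3 -2.46, Fn1 -2.32, Cdx2 -2.1, Sparc -1.7, Eomes -0.75 and Nes -0.63, and the remaining genes Cdkn1a -1.8, Pdk1 -1.55, Tapbp -1.43 and Cbx7 -1.16.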

How the results depend on the processing

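Leaving out 1 library gave 346 to 2193 genes higher and 307 to 2065 lower in LF2 mESC, 2024 to 4716 genes whose line difference changed with the state, and a spread of chromosome medians of 0.336 to 0.366. Without scaling, 454 genes were higher and 1268 differed between states. With TPM rescaled over protein-coding genes, 522 were lower and the spread was 0.377; a pseudocount of 0.1 gave a spread of 0.39. With no filter on low values, which lets in genes near 0, 619 were higher, 454 lower and the spread was 0.015. At TPM of at least 5, 579 were higher, 442 lower, 1607 differed between states and the spread was 0.366. All 19 libraries in the fit gave 1981 and 1763. Requiring a log2 difference of at least 1 left 491, 369 and 1164. The cause of these shifts was not tested. Of the 151 genes examined, no called difference between the lines changed sign under these alternatives. Among those not called, Sox2 (-0.04) turned to 0.006 with TPM rescaled over protein-coding genes and to 0.020 without E14 replicate 2, Stat3 (0.10) to -0.15 without scaling and to -0.025 without E14 replicate 2, and Tet2 (0.38) to -0.099 without E14 replicate 2. Of 768 list values 560 moved by less than the limit set for them and 208 by more.

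With the replicate number as a block, 251 genes were higher, 255 lower and 2587 differed between states. The deviations of same-numbered libraries correlated at -0.196, -0.345 and 0.121, and no library correlated best with its own number. Whether same-numbered libraries shared a batch was not tested.

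Depth is unknown for TPM. Each karyotype was represented by 1 line with 3 libraries, and the highest counts in mESC above are those without LF2 replicate 2.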

Other observations

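Classes of noncoding genes lay off the median of all members, -0.009; of all members 9.1% were called higher and 7.78% lower. Of 50 unprocessed pseudogenes, which are old gene copies, 16 were lower in LF2 mESC (32.0%) and 2 higher, with a median of -0.445. Of 277 processed pseudogenes 42 were lower (15.2%) and 13 higher, and of 235 lincRNA genes 43 were lower (18.3%) and 25 higher. Small RNA classes had medians above 0: 142 snoRNA genes had a median of 0.361 with 2 higher and 1 lower, and 52 miRNA genes 0.621 with 5 higher (9.62%) and 2 lower. Protein-coding genes held 22.8% to 43.6% of TPM in LF2 libraries and 32.2% to 46.1% in E14 libraries; the part of this in the class medians was not tested.

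Called genes more often had promoters poor in CpG. Among protein-coding members with a RefSeq promoter of 300 bases, the observed over expected CpG ratio was under 0.4 for 22.2% of 573 lower genes, 14.5% of 767 higher genes and 8.85% of 6779 genes not called. These shares carry no test.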
